A study of Mus musculus with 4 samples.

Results

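The 6 genes described here, *Adgrl4*, *Adgrf5*, *Adgrg1*, *Adgrl2*, *Adgre5* and *Adgra2*, encode adhesion G protein-coupled receptors. They were chosen by name, with earlier results of these data known. They are 6 of the 30 genes of this family among the 46517 gene identifiers counted. They were followed through dermal endothelial cells (ECs) of the mouse ear, profiled by Smart-seq2, which reads 1 sorted cell per well of a plate and gives read counts that carry no molecular identifiers. Cells with CD31 and without CD45 and Lyve1 on their surface were sorted from adult wild-type female C57Bl/6 mice (ears of 6 mice pooled). The labels give 12 to 26 weeks of age, while the methods of the study give the substrain C57BL/6 J and another age range. The cells were sorted into 4 plates of 384 wells, namely plates A and B of replicate 1 and plates A and B of replicate 2. No mouse carried a transgene or received a treatment, so the groups compared are classes of cells within the same sorted pools.

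Adhesion G protein-coupled receptors carry a long extracellular part that binds proteins of neighbouring cells or of the matrix, followed by a membrane-spanning part that couples to G proteins. Most members cut themselves within the GAIN domain that joins these parts, and a short stretch next to the cut, the tethered agonist, can then activate the receptor. In vessels they are known as receptors through which ECs sense contact, matrix and flow.

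The wells were divided without use of any adhesion receptor gene. Blood vascular EC (BEC) wells had reads of at least 2 of the 3 endothelial genes *Pecam1*, *Cdh5* and *Kdr* and less than 100 CPM (reads of a gene scaled to a common total of reads on genes per well) of each of the lymphatic genes *Prox1* and *Lyve1*, the mural genes *Pdgfrb* and *Kcnj8* and the leukocyte gene *Ptprc*. Clusters of these wells were called artery-like (43 wells in replicate 1 and 100 in replicate 2), capillary-like (139 and 56) and vein-like (123 and 108) from marker genes, which gives 305 and 264 named BEC wells. Lymphatic wells (13 and 145) had endothelial reads and at least 100 CPM of *Prox1* or *Lyve1* although the sort excluded Lyve1 protein, and mural-mixed wells (407 and 53) had endothelial reads together with at least 100 CPM of *Pdgfrb* or *Kcnj8*. The number of lymphatic wells of replicate 1 was small, with 9 on plate A and 4 on plate B. With *Prox1* alone in the definition, 12 of the 13 and 67 of the 145 wells remained. In 30 of the 145 wells no gene used for the limits reached 200 CPM. Of the markers that did not divide the wells, 8 of 8 lymphatic genes were higher in lymphatic wells than in BEC wells in both replicates, as were 9 of 10 mural genes in mural-mixed wells. Summed over the 8 lymphatic markers, the level was 5327 and 7836 CPM in lymphatic wells against 70.1 and 177 CPM in BEC wells. The sorted wells, whose cell type label is blood vascular ECs, thus included wells with the defining genes of lymphatic ECs and of mural cells. Replicate 1 held 137830538 reads on genes and replicate 2 held 67411702, and median reads per well ranged from 40324 to 182926 between plates. Lymphatic wells had a median of 117747 reads in replicate 1 and 36000 in replicate 2, against 148496 and 127648 in BEC wells. Shares of wells with a read of a member are therefore given after thinning to 20000 reads per well as well as at full depth. Thinned shares leave out wells under 20000 reads. In replicate 2 they cover 92 of 145 lymphatic, 32 of 53 mural-mixed, 37 of 56 capillary-like and 238 of 264 BEC wells.

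On the mm10 genome, *Adgrl4* (ENSMUSG00000039167) lies at chr3:151437887-151545086 on the plus strand, and *Adgrl2* (ENSMUSG00000028184) lies on the minus strand of the same chromosome at chr3:148815583-148990555. *Adgrf5* (ENSMUSG00000056492) is at chr17:43360451-43459557. The other members are all on chromosome 8, with *Adgra2* (ENSMUSG00000031486) at chr8:27085583-27123436, *Adgre5* (ENSMUSG00000002885) at chr8:83723251-83741326 and *Adgrg1* (ENSMUSG00000031785) at chr8:94974751-95014217. A further family gene, *Adgrg3* (ENSMUSG00000060470), starts at chr8:95017692-95045250 on the same strand as *Adgrg1*, 3474 bases past its end with 0 annotated genes between them. Of 3757 exon bases of *Adgre5*, 895 are also exon of *Ddx39* on the opposite strand and 31 of *Mir1668*. *Adgrl2* shares 202 of its 14198 exon bases with the antisense gene *Gm43573*, and *Adgra2* shares 73 of 5775 with *Brf2*. Smart-seq2 reads carry no strand, so reads in those bases cannot be assigned to one gene of the pair. *Adgrl4* and *Adgrg1* share no exon base with another gene.

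The starts of *Adgrl4*, *Adgrg1* and *Adgrg3* are printed because these are the genes whose levels set lymphatic and blood vascular wells apart below, and because the last pair are neighbours that differed in opposite directions. Each window holds 250 bases before to 50 bases after the start in RefSeq (GRCm38.p6), read 5′ to 3′ on the strand of the gene, with the letters GGAA and their reverse complement TTCC, the core bound by ETS factors, in capitals. The windows are chr3:151437632-151437931 for *Adgrl4*, chr8:94976859-94977158 and chr8:94984149-94984448 for the starts 1 and 2 of *Adgrg1*, and chr8:95017442-95017741 for *Adgrg3*.
Adgrl4: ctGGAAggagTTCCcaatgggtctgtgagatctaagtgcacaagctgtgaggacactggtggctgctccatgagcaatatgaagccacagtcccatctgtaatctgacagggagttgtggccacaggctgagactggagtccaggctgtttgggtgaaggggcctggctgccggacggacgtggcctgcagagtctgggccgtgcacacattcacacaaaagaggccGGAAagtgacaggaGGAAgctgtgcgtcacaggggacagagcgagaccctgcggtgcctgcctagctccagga
Adgrg1 start 1: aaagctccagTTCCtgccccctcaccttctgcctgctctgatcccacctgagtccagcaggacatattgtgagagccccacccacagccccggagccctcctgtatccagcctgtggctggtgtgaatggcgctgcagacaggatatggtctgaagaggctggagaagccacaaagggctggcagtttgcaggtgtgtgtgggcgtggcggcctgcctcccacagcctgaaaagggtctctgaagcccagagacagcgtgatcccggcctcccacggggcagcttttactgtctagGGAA
Adgrg1 start 2: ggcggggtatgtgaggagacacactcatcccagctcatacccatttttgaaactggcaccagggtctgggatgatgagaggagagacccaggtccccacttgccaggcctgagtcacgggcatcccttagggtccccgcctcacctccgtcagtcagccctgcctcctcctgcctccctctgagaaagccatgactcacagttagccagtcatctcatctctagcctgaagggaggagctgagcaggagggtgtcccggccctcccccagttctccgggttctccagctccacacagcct
Adgrg3: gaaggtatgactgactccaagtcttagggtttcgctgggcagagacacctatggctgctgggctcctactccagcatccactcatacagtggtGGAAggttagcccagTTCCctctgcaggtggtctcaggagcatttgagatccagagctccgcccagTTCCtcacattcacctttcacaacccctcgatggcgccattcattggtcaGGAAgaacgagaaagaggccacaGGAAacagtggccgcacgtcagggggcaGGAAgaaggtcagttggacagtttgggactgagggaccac
*Adgrl4* held 4 matches of GGAA on both strands and 1 of CCGGAA, *Adgrg1* held 2 at start 1 and 0 at start 2, and *Adgrg3* held 6. Of 32851 promoters of this length, 96.0% held GGAA, with a median of 3 matches, and 14.9% held CCGGAA, so the short core is common to nearly all promoters. The windows of *Adgrf5* held 7 and 5 matches of GGAA and that of *Adgrl2* held 2. AGATAA, a form of the GATA site found in 11.2% of promoters, and ACAATG, a form of the SOX site found in 12.6%, had 0 matches in the windows of these members. The table searched held 4 of the 6 members, without *Adgre5* and *Adgra2*.

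Per length of exon, the receptors of BEC wells fell into the same order in both replicates. *Adgrl4* had the highest level, 274 CPM per kb in replicate 1 and 144 CPM per kb in replicate 2, followed by *Adgrf5* with 143 and 100.2 CPM per kb and *Adgrg1* with 127 and 65.1 CPM per kb. *Adgre5* reached 42.0 and 23.7 CPM per kb, *Adgrl2* 5.84 and 6.66 CPM per kb and *Adgra2* 0.931 and 0.726 CPM per kb. The replicate means were 209 ± 92.4 CPM per kb for *Adgrl4*, 122 ± 30.3 for *Adgrf5* and 96.0 ± 43.8 for *Adgrg1* (SD, n = 2), so these 3 neighbours in the order did not differ beyond their spread. *Adgre5* (32.9 ± 12.9), *Adgrl2* (6.25 ± 0.580) and *Adgra2* (0.828 ± 0.145) each stood below the one before by more than their spread. In lymphatic wells the order differed between the replicates. *Adgrf5* had 24.2 and 31.7 CPM per kb there, *Adgrl4* 20.4 and 17.7, *Adgrg1* 24.5 and 7.56, and *Adgre5* 13.2 and 12.3, and *Adgra2* with 10.7 and 2.04 CPM per kb stood above *Adgrl2* with 0.262 and 1.02 in both. In TMM-scaled sums of the lymphatic wells of replicate 2, *Adgra2* had 7.31 CPM and *Adgrl2* 44.9 CPM. Their order was thus reversed there, also per length of exon.

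**Figure D1:**
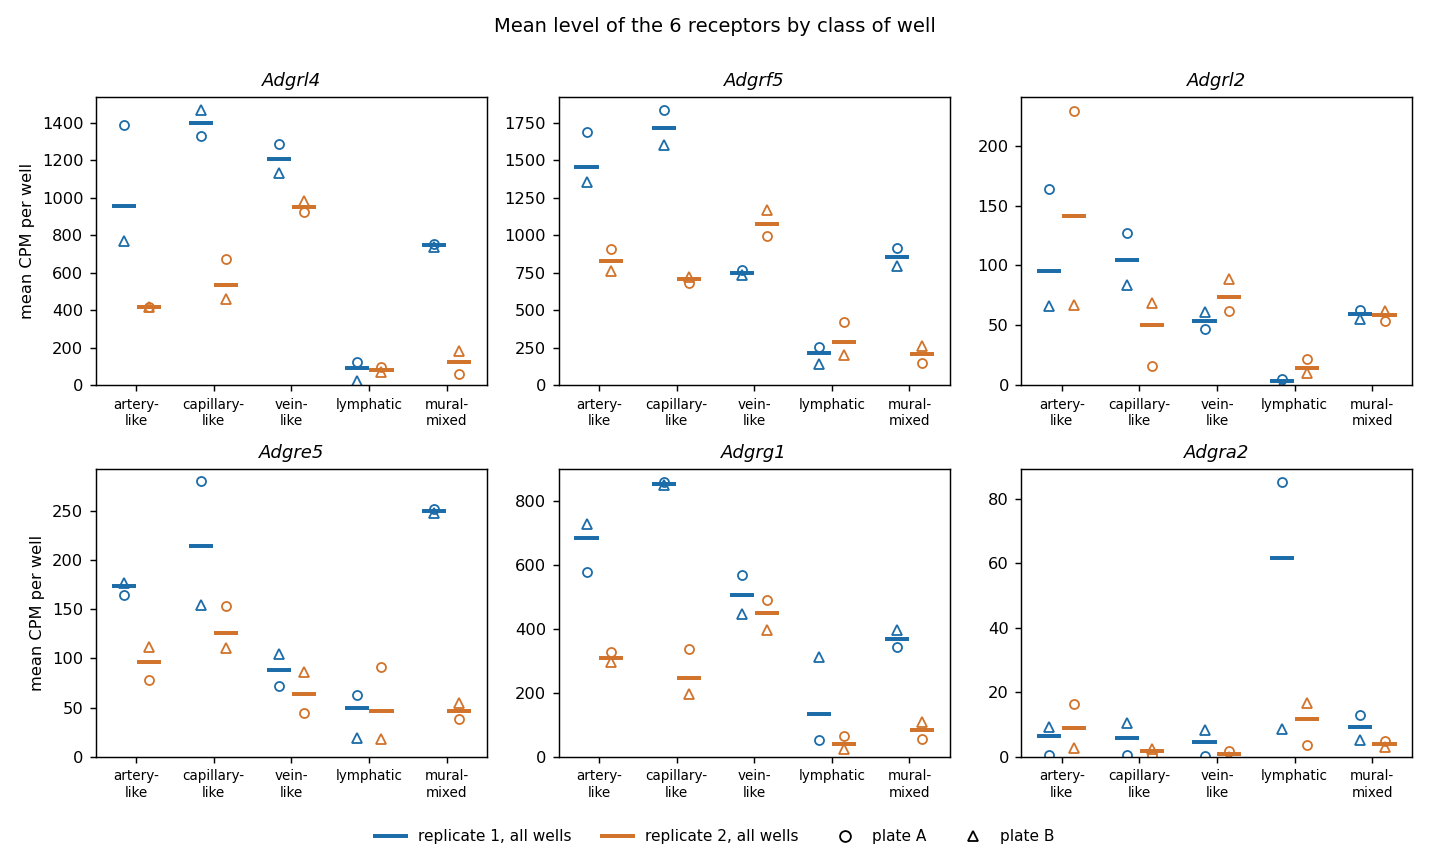
Mean CPM per well (linear axis from 0, a scale of its own for each gene) of the 6 receptors in artery-like, capillary-like, vein-like, lymphatic and mural-mixed wells, with a horizontal line for each of the 2 replicates, circles for plate A and triangles for plate B. *Adgrl4* was 955 and 416 CPM in artery-like wells and 93.7 and 81.0 CPM in lymphatic wells, whereas *Adgra2* was 61.6 and 11.8 CPM in lymphatic wells, the highest of the 5 classes except in replicate 2 with scran size factors (16.1 against 30.4 in mural-mixed wells).

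Tests were run on raw counts summed per replicate and class, since wells of a plate are not replicates. They used the quasi-likelihood test of edgeR over 18012 genes with Benjamini-Hochberg adjustment over all of them and a threshold of 0.05. All p-values are two-sided, and log2 fold changes are given with their SE.

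*Adgrl4*, also named ELTD1, is a receptor of ECs known from angiogenesis. In artery-like wells it had a mean of 955 CPM in replicate 1 and 416 CPM in replicate 2, in capillary-like wells 1400 and 535 CPM and in vein-like wells 1205 and 949 CPM. In lymphatic wells it had 93.7 and 81.0 CPM, and in mural-mixed wells 745 and 125 CPM. Every BEC class was above the lymphatic wells in both replicates, whereas the means of the 3 BEC classes, 686 ± 381, 967 ± 612 and 1077 ± 182 CPM (SD, n = 2), did not differ beyond their spread. Their order by mean CPM differed between replicates, while TMM-scaled sums ran from capillary-like (1539 and 972) through vein-like (1170 and 857) to artery-like wells (958 and 554) in both. By plate, the lymphatic wells had 126, 21.5, 94.6 and 72.6 CPM and the BEC wells 1315, 1212, 697 and 625 CPM, in the order plates A and B of replicate 1 and plates A and B of replicate 2. Plates of a replicate hold cells of the same mice and are not independent. The difference between the lymphatic sums and the mean of the 3 BEC classes was a log2 fold change of −2.83 ± 0.43 (edgeR, adjusted p = 0.0093). It was −3.15 in replicate 1 and −2.60 in replicate 2. On plate A of both replicates alone it was −2.42 with an adjusted p of 0.190 (edgeR), and on plate B alone −4.00 with 0.00831. A single well of replicate 1 carried 73.9% of the *Adgrl4* level of the 13 lymphatic wells, and the mean of the other 12 was 26.5 CPM. That well had 230011 reads and 3956 CPM of the lymphatic marker *Mmrn1*. After thinning, *Adgrl4* was read in 96.1% and 72.3% of BEC wells and in 46.2% and 39.1% of lymphatic wells. At full depth the shares were 99.7% and 80.3% of BEC wells, and 92.3% (exact 95% binomial interval 64.0 to 99.8%) and 51.0% (42.6 to 59.4%) of lymphatic wells, where the intervals cover counting error only. As a background, wells with mural genes and a read of fewer than 2 endothelial genes, 39 wells of replicate 2, had 15.2 CPM of *Adgrl4*, below the lymphatic wells.

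*Adgrg1*, also named GPR56, binds collagen III and transglutaminase 2 and is best known from the developing brain. Its mean level was 683 and 309 CPM in artery-like, 853 and 246 CPM in capillary-like and 504 and 448 CPM in vein-like wells, against 133 and 41.0 CPM in lymphatic and 369 and 82.5 CPM in mural-mixed wells. Lymphatic wells were below each BEC class in both replicates, and no BEC class was above the other BEC classes in both. They were also below mural-mixed wells, except in replicate 2 with scran size factors (116 against 88.0). Sums of lymphatic wells differed from those of BEC wells by a log2 fold change of −2.41 ± 0.38 (edgeR, adjusted p = 0.0105), with −2.03 in replicate 1 and −2.78 in replicate 2. Without the replicate as a block the value was −2.30 with an adjusted p of 0.0606, and on plate A or plate B alone it was −2.82 with 0.0606 and −1.84 with 0.368 (edgeR). By plate, the lymphatic level was 53.3, 311, 66.0 and 25.7 CPM and the BEC level 708, 672, 406 and 305 CPM, so the 4 lymphatic wells of plate B of replicate 1 were slightly above the lowest BEC plate. A single well carried 69.2% of the level of the 13 lymphatic wells of replicate 1, and the mean without it was 44.3 CPM. This was not the well with the highest *Adgrl4*, which had 26.1 CPM of *Adgrg1*. *Adgrg1* was read in 84.3% and 53.4% of thinned BEC wells and in 38.5% and 15.2% of thinned lymphatic wells. The background wells of replicate 2 had 10.8 CPM.

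Together these were 2 of 6 members called in the comparison of lymphatic with BEC wells, both lower in lymphatic wells. Of all 18012 genes, 2.55% were called, 1.57% higher and 0.988% lower. DESeq2 called 3 members, with *Adgra2* added, and 13.4% of the genes to which it gave an adjusted p. The median log2 fold change was −1.93 over the 6 members and −0.16 over all genes. With the size factors of DESeq2 the median of all genes was −0.01 and both members kept their direction and call. The endothelial genes *Pecam1*, *Cdh5* and *Kdr*, summed, were also lower in lymphatic wells, at 2403 and 1860 CPM against 4329 and 3405 CPM in BEC wells, and the part of this in the receptor values was not tested.

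**Figure D2:**
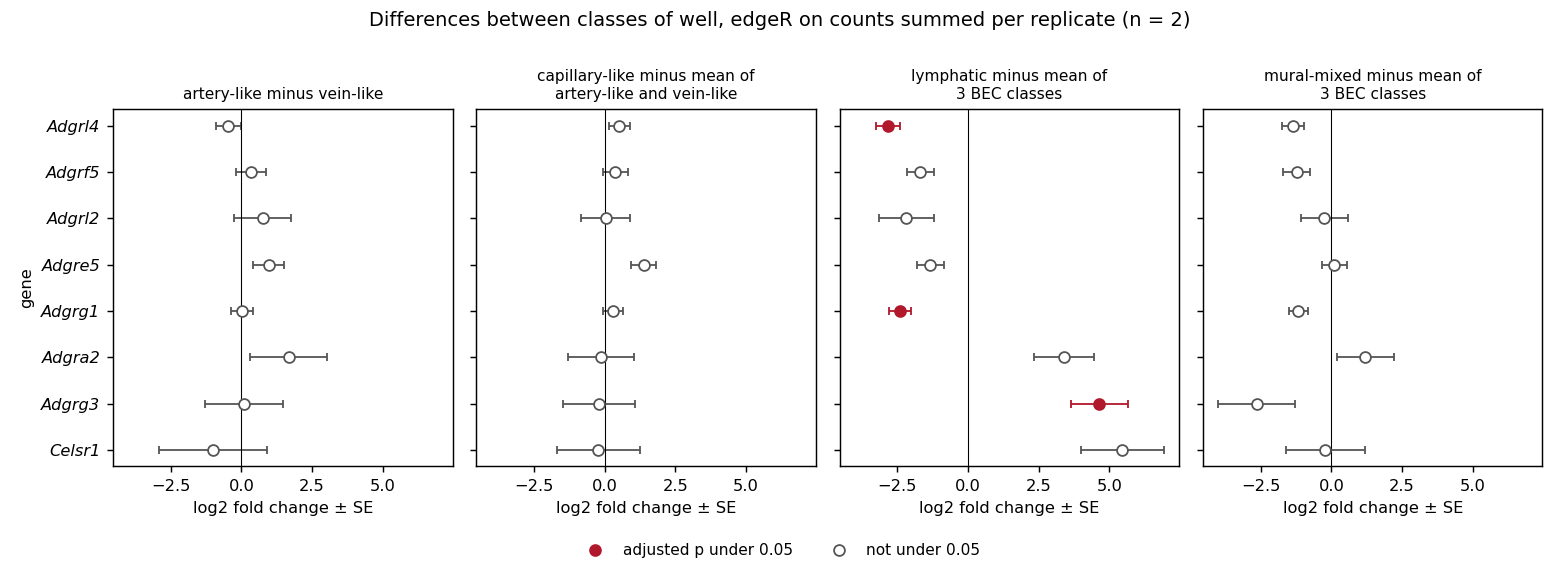
Log2 fold changes with their SE (edgeR, sums per replicate and class) of the 6 receptors, *Adgrg3* and *Celsr1* in the 4 comparisons, with filled red points for an adjusted p under 0.05. *Adgrl4* at −2.83 and *Adgrg1* at −2.41 are the called members, both between lymphatic and BEC wells, where *Adgrg3* is called in the other direction.

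*Adgrf5*, also named GPR116, is known for the control of surfactant in the lung and is also made by ECs. Its level was 1457 and 828 CPM in artery-like, 1714 and 706 CPM in capillary-like and 750 and 1075 CPM in vein-like wells. Lymphatic wells had 218 and 285 CPM and mural-mixed wells 857 and 208 CPM. The lymphatic plates ranged from 140 to 419 CPM and the BEC plates from 894 to 1367 CPM. The log2 fold change between lymphatic and BEC sums was −1.69 ± 0.48 and did not pass the threshold (edgeR, adjusted p = 0.131), with −2.49 in replicate 1 and −1.13 in replicate 2. It passed in 4 of 15 fits with other settings, among them plate B alone. Between artery-like and vein-like wells the direction differed between replicates, 1.01 in replicate 1 and −0.23 in replicate 2 on the log2 scale. *Adgrf5* was the member read in most lymphatic wells, 69.2% and 60.9% after thinning, compared with 98% and 88.2% of BEC wells. The background wells of replicate 2 had 36.4 CPM.

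*Adgrl2*, latrophilin 2, binds teneurins and FLRT proteins of neighbouring cells. Its level was 95.6 and 142 CPM in artery-like, 105 and 50.1 CPM in capillary-like, 54.0 and 74.0 CPM in vein-like and 59.2 and 58.2 CPM in mural-mixed wells. In lymphatic wells it was 3.72 and 14.5 CPM, the lowest of the 5 classes in both replicates. The lymphatic plates ranged from 0 to 21.8 CPM and the BEC plates from 71.9 to 116 CPM. The log2 fold change was −2.18 ± 0.98 (edgeR, adjusted p = 0.364), and the replicates gave −4.87 and −0.81. The 13 lymphatic wells of replicate 1 included 3 with a read at full depth and 0 after thinning. In replicate 2, 9.66% of lymphatic wells had a read at full depth, against 15.4% of the background wells, whose mean was 17.9 CPM. Median reads were 36000 in these lymphatic wells and 111716 in the background wells. After thinning the shares were 8.70% (exact binomial interval 3.83 to 16.4%) and 12.5% (2.66 to 32.4%), so the intervals overlapped. The background wells had 8186 CPM of summed mural markers, and whether such cells express *Adgrl2* was not tested. They therefore set no floor for the lymphatic level, which was not shown to differ from theirs. BEC wells had a read in 53.1% and 33.3% at full depth, and in 31.5% and 23.1% after thinning. A single artery-like well of replicate 2 had 6374 CPM, which was 45.0% of the level of its class, and the mean of the other wells was 78.6 CPM. Likewise 72.1% of the capillary-like level of replicate 2 came from a single well.

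*Adgre5*, also named CD97, binds CD55, Thy1 and integrins and is common on leukocytes. Its level was 173 and 96.1 CPM in artery-like, 214 and 126 CPM in capillary-like, 88.7 and 63.5 CPM in vein-like, 49.6 and 46.1 CPM in lymphatic and 250 and 46.8 CPM in mural-mixed wells. Among BEC classes the order capillary-like, artery-like, vein-like was the same in both replicates. A single artery-like well of replicate 2 held 46.2% of the level of its class, however. Without the highest well of each class, artery-like wells of replicate 2 had 52.2 CPM and vein-like wells 53.2 CPM. Capillary-like wells were above the mean of the artery-like and vein-like wells by a log2 fold change of 1.38 ± 0.45, with an unadjusted p of 0.0129 and an adjusted p of 1 (edgeR), and by 0.91 and 1.72 within the replicates. Fibroblast markers were also higher in capillary-like wells, with a sum of 463 and 347 CPM against 99.8 and 166 CPM in artery-like and 88.8 and 33.8 CPM in vein-like wells, and their part in the *Adgre5* values was not tested. Lymphatic wells differed from BEC wells by −1.33 ± 0.48 (edgeR, adjusted p = 0.242). Here the plates overlapped, since lymphatic wells of plate A of replicate 2 had 91.2 CPM and BEC wells of the same plate 74.2 CPM. A single well with 4047 CPM carried 60.5% of the lymphatic level of replicate 2. Background wells of replicate 2, with a median of 111716 reads, had 119 CPM and a read in 33.3% of wells, against 89.1 CPM and 33.0% in BEC wells. The BEC level of *Adgre5* in replicate 2 was thus not above that of wells with few endothelial reads. The summed immune markers stayed at 28.0 and 7.67 CPM in BEC wells and at 0.736 and 0.0778 CPM in lymphatic wells.

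*Adgra2*, also named GPR124, acts with Reck as a co-receptor for Wnt7 ligands in vessels of the brain. It was the only member with a higher level in lymphatic than in BEC wells in both replicates, 61.6 and 11.8 CPM against 5.38 and 4.19 CPM. Artery-like wells had 6.49 and 9.02 CPM, capillary-like wells 5.79 and 1.70 CPM, vein-like wells 4.53 and 1.01 CPM and mural-mixed wells 9.21 and 3.93 CPM. The highest well held 51.0% and 52.2% of the artery-like, 93.1% and 88.3% of the capillary-like and 58.4% and 84.0% of the vein-like level. The log2 fold change between lymphatic and BEC wells was 3.39 ± 1.07 and did not pass the threshold (edgeR, adjusted p = 0.174), with 4.34 in replicate 1 and 1.16 in replicate 2. By plate the lymphatic level was 85.2, 8.49, 3.70 and 16.7 CPM and the BEC level 0.382, 9.51, 6.94 and 1.72 CPM, so the groups overlapped. Few wells carried it, with reads in 4 of 13 and 8 of 145 lymphatic wells at full depth, and the highest well held 81.7% and 71.1% of the level in the replicates. After thinning, 23.1% and 6.52% of lymphatic wells and 1.64% and 2.52% of BEC wells had a read. At full depth the shares of replicate 2 were close, 5.52% of lymphatic and 5.30% of BEC wells. Wells with mural genes and few endothelial reads had 38.9 CPM and a read in 20.5%, above the 5.30% of BEC wells of that replicate.

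**Figure D3:**
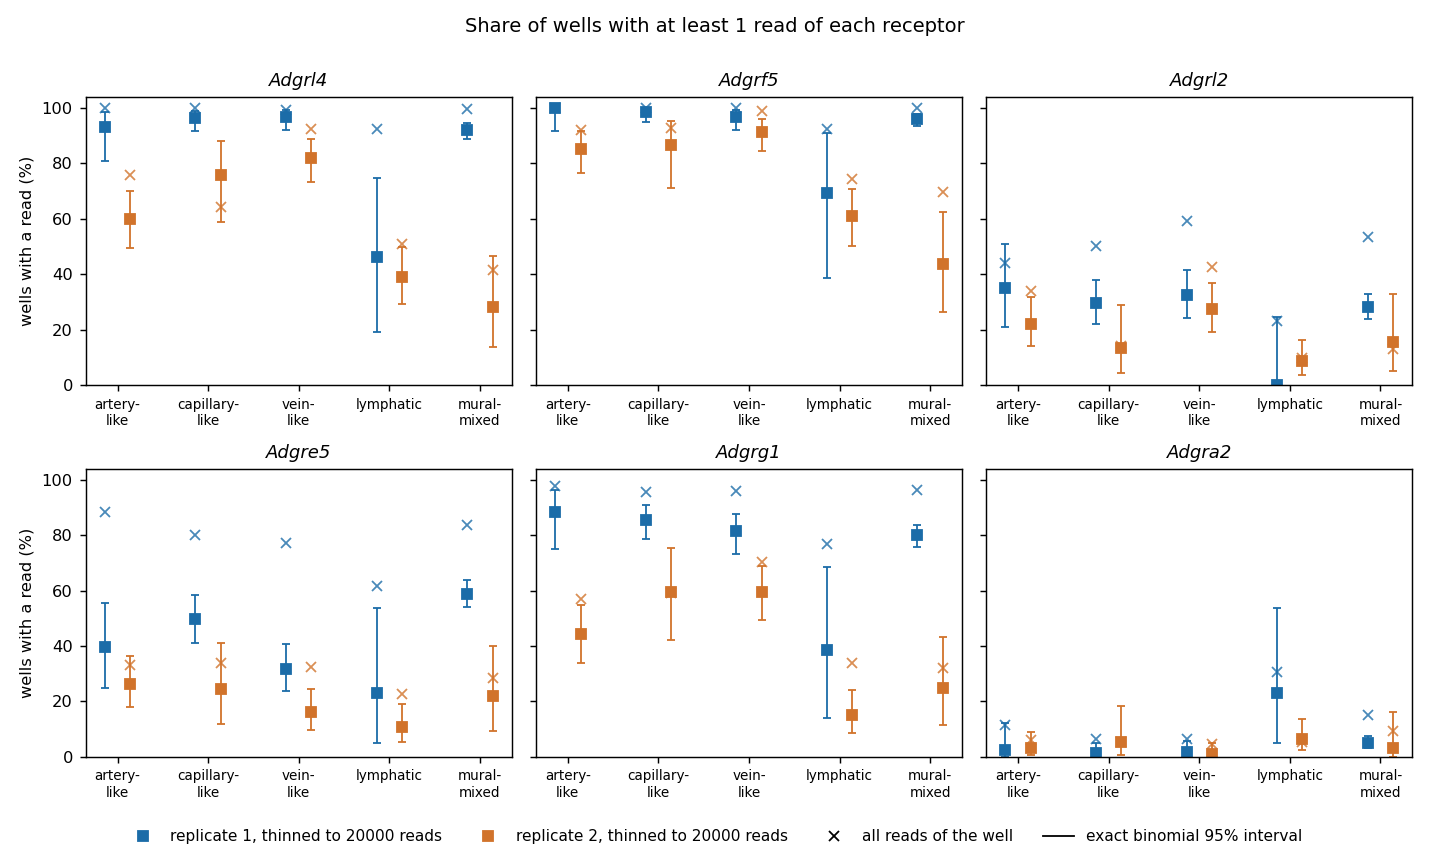
Share of wells with a read of each receptor (percent) by class and replicate, as squares after thinning to 20000 reads, with exact 95% binomial intervals that cover counting error only, and as crosses at full depth. Squares leave out wells under 20000 reads. Every member except *Adgra2* was read in fewer lymphatic than BEC wells in both replicates. *Adgra2* was read in more after thinning, while at full depth its shares in replicate 2 were 5.52% of lymphatic and 5.30% of BEC wells.

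Within the 3 BEC classes none of the 6 members was called between artery-like and vein-like wells or between capillary-like wells and the other classes, where 0% of all genes were called in both comparisons. At an unadjusted p under 0.05, edgeR gave 691 and 657 of the 18012 genes (3.84% and 3.65%), and the Wald test of DESeq2 called 149 and 111 genes (1% and 0.783% of those with an adjusted p), with 0 members among the latter. *Adgre5* in the capillary-like comparison was the 1 member with an unadjusted p under 0.05. Between artery-like and vein-like wells the log2 fold changes were −0.47 ± 0.44 for *Adgrl4*, 0.35 ± 0.53 for *Adgrf5* and 0.02 ± 0.40 for *Adgrg1*. The values of the less abundant members were wider, at 0.75 ± 1.0 for *Adgrl2*, 0.96 ± 0.54 for *Adgre5* and 1.67 ± 1.36 for *Adgra2*. Capillary-like wells differed from the mean of the other classes by 0.51 ± 0.37 for *Adgrl4*, 0.38 ± 0.45 for *Adgrf5*, 0.29 ± 0.34 for *Adgrg1*, 0.03 ± 0.87 for *Adgrl2* and −0.14 ± 1.17 for *Adgra2*. The 3 abundant receptors were thus present in each BEC class at levels whose differences were not detectable at this number of replicates. The filter that defines these wells also bears on them, since 88 of 338 BEC or unnamed wells of replicate 1 and 47 of 363 of replicate 2 had 50 to 200 CPM of a gene used for the limit.

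Mural-mixed wells differed from BEC wells in 1.2% of all genes, each of them higher, and in 0 of 6 members, of which DESeq2 also called 0 (5.12% of its genes). An unadjusted p under 0.05 was found for 3 members and for 8.68% of all genes (edgeR). The log2 fold change was −1.35 ± 0.40 for *Adgrl4* (edgeR, adjusted p = 0.174), −1.23 ± 0.47 for *Adgrf5* (0.401) and −1.17 ± 0.35 for *Adgrg1* (0.183). *Adgrl2* (−0.24 ± 0.83) and *Adgre5* (0.10 ± 0.44) had an SE larger than the difference, and *Adgra2* was at 1.21 ± 1.02. The replicates differed more than these means show. *Adgrl4* of mural-mixed wells was 745 CPM in replicate 1, where its log2 fold change was −0.75, and 125 CPM in replicate 2, where it was −2.24. *Adgre5* was higher than in BEC wells in replicate 1 (0.65) and lower in replicate 2 (−0.54). The summed endothelial genes moved in the same way, with 2807 CPM in mural-mixed wells of replicate 1 and 915 CPM in those of replicate 2, while the 10 mural markers summed to 7097 and 7578 CPM. Fibroblast markers summed to 952 and 1501 CPM against 261 and 150 CPM in BEC wells. The part of these shifts in the receptor levels was not tested.

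Receptors were also counted per well after thinning, with wells under 20000 reads left out. BEC wells had reads of 3.52 and 2.61 of the 6 receptors on average, lymphatic wells of 2.00 and 1.41 and mural-mixed wells of 3.60 and 1.38. At least 3 receptors were read in 91.8% and 57.1% of BEC wells, in 30.8% and 16.3% of lymphatic wells and in 87.5% and 18.8% of mural-mixed wells. No receptor was read in 15.4% and 20.7% of lymphatic wells, compared with 0% and 2.1% of BEC wells. Lymphatic wells were therefore below BEC wells within each replicate, whereas mural-mixed wells were close to BEC wells in replicate 1 and to lymphatic wells in replicate 2. Vein-like wells had means of 3.41 and 2.77 receptors, artery-like wells 3.58 and 2.41 and capillary-like wells 3.61 and 2.65.

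**Figure D4:**
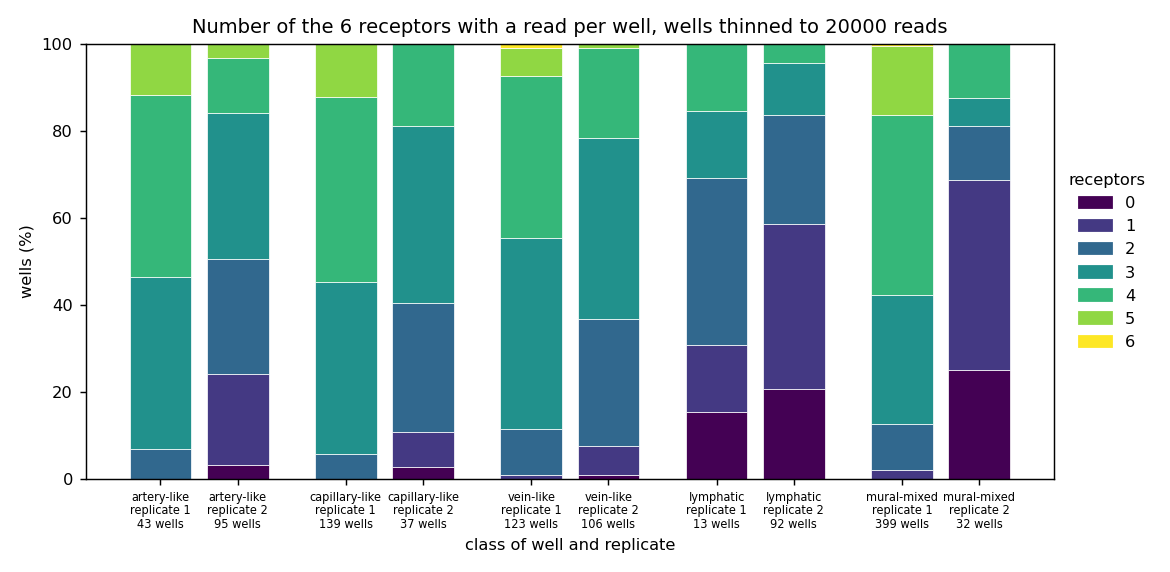
Percent of wells with reads of 0 to 6 of the 6 receptors after thinning to 20000 reads per well, by class and replicate. Wells under 20000 reads are left out. In replicate 2, 38.0% of the remaining 92 lymphatic wells had 1 receptor and 20.7% had none, while 41.5% of the remaining 106 vein-like wells had 3.

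Of the whole family of 30 genes, 10 reached a mean of 10 CPM in both replicates in at least 1 of the 5 classes, the 6 members together with *Adgrg3*, *Celsr1*, *Adgra3* and *Adgrl1*. The other 20 did not reach it in both replicates of any class, and 18 of the 30 had enough counts to be tested. In the comparison of lymphatic with BEC wells 2 of the 18 were called higher and 2 lower, while 1.57% and 0.988% of all genes were. DESeq2 called 5 of the 18 in this comparison, and 13.4% of all genes to which it gave an adjusted p. *Adgrg3*, also named GPR97, was higher in lymphatic wells, with 84.6 and 238 CPM against 4.46 and 9.54 CPM in BEC wells and a log2 fold change of 4.64 ± 1.0 (edgeR, adjusted p = 0.0430). It lies directly downstream of *Adgrg1*, which differed in the opposite direction. On plate B alone the adjusted p of *Adgrg3* was 0.211, and with lymphatic wells defined by *Prox1* alone it was 0.0557 (edgeR). A read of *Adgrg3* was found in 23.1% and 39.3% of lymphatic wells and in 4.26% and 8.71% of BEC wells at full depth. In replicate 1 a single well, the one with the highest *Adgrl4*, held 77.9% of its lymphatic level. Among lymphatic wells with *Adgrg3*, 3 of replicate 1 also had a read of *Adgrg1* and 0 did not, whereas in replicate 2 *Adgrg1* was read in 19 and not in 38. *Celsr1*, a cadherin receptor of planar cell polarity known from lymphatic valves, had 105 and 86.6 CPM in lymphatic wells against 2.36 and 23.8 CPM in BEC wells (5.46 ± 1.47, edgeR, adjusted p = 0.104). The replicates gave 6.90 and 2.48, and a single well held 73.4% of the lymphatic level of replicate 1, where the other wells had a mean of 30.2 CPM. Its relative *Celsr2* was called as well (edgeR, adjusted p = 0.0328) on 14 and 9 reads in lymphatic wells, from 4 and 3 wells, and 6 and 0 reads in BEC wells, which is too few to give a fold. The call passed in 6 of 12 fits, with an adjusted p of up to 0.124. *Adgra3* had 14.1 and 37.6 CPM in artery-like, 12.0 and 1.03 CPM in capillary-like and 20.0 and 9.91 CPM in vein-like wells and 0 and 0.866 CPM in lymphatic wells (−3.37 ± 1.94, edgeR, adjusted p = 0.494), where 98.1% of the artery-like level of replicate 2 came from a single well. *Adgrl1*, latrophilin 1, had 48.3 and 9.80 CPM in lymphatic wells against 4.09 and 23.4 CPM in BEC wells, so that the direction differed between replicates (1.42 ± 1.59, edgeR, adjusted p = 0.772), and a single well held 64.9% of the lymphatic level of replicate 1.

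**Figure D5:**
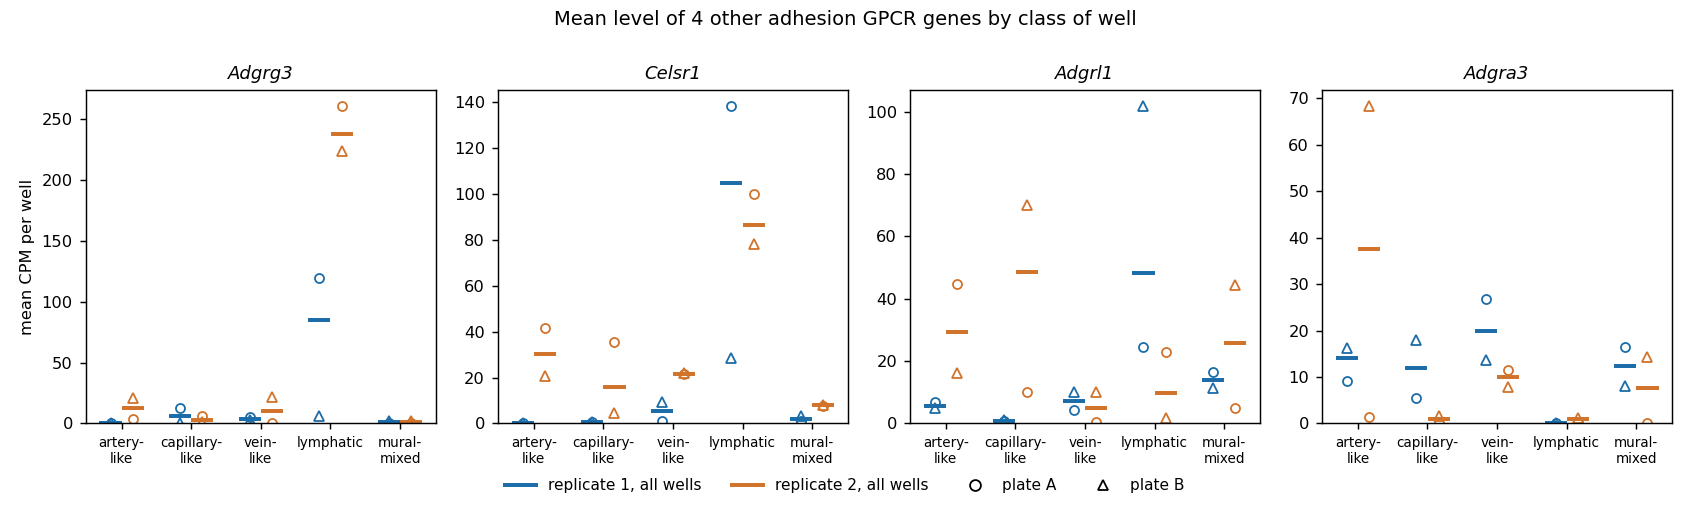
Mean CPM per well (linear axis from 0) of *Adgrg3*, *Celsr1*, *Adgrl1* and *Adgra3* by class, with a horizontal line for each replicate, circles for plate A and triangles for plate B. *Adgrg3* (84.6 and 238 CPM) and *Celsr1* (105 and 86.6 CPM) were highest in lymphatic wells in both replicates.

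Genes for known ligands and partners of the receptors were read from lists chosen with earlier results of these data known. Of 5 *Adgre5* ligand genes tested, 2 were called higher in lymphatic than in BEC wells and 1 in mural-mixed wells (edgeR), where 1.57% and 1.2% of all genes were called higher. DESeq2 called 2 in both comparisons, against 13.4% and 5.12% of its genes. *Thy1*, a glycoprotein of the cell surface, was 193 and 303 CPM in lymphatic, 63.5 and 80.3 CPM in mural-mixed and 12.8 and 36.5 CPM in BEC wells, with log2 fold changes of 4.74 ± 0.55 (edgeR, adjusted p = 0.00230) and 3.26 ± 0.55 (0.0243). The mural-mixed call passed in 10 of 14 fits, and not on either plate alone. *Itgav*, an integrin chain, was 32.1 and 94.3 CPM in lymphatic against 7.04 and 10.1 CPM in BEC wells (3.48 ± 0.75, edgeR, adjusted p = 0.0423), a call that passed in 10 of 16 fits with an adjusted p of up to 0.583. The remaining genes of the list had BEC levels of 640 and 387 CPM for the integrin gene *Itgb1*, 249 and 252 CPM for *Itga5* and 17.3 and 21.3 CPM for *Cd55*. Of 6 latrophilin ligand genes tested, edgeR called 1 between lymphatic and BEC wells (2.55% of all genes) and DESeq2 called 3 (13.4%), and between mural-mixed and BEC wells they called 0 (1.2%) and 1 (5.12%). *Flrt2* was 112 and 128 CPM in lymphatic and 15.7 and 6.50 CPM in BEC wells (4.80 ± 1.04, edgeR, adjusted p = 0.0430), a call that passed in 13 of 16 fits with an adjusted p of up to 0.355. Fibroblast markers of lymphatic wells summed to 220 and 585 CPM against 261 and 150 CPM in BEC wells, so they were higher in replicate 2 alone, and their part in the values of these ligand genes was not tested. Of the 2 *Adgrg1* ligand genes, *Col3a1* was higher in mural-mixed than in BEC wells, with 827 and 625 CPM against 102 and 19.0 CPM (5.08 ± 0.73, edgeR, adjusted p = 0.0125). *Col3a1* is also a matrix gene of fibroblasts, whose markers summed to 952 and 1501 CPM in these wells against 261 and 150 CPM in BEC wells, and their part in its values was not tested. *Tgm2*, for transglutaminase 2, had 653 and 676 CPM in BEC wells and did not pass the threshold in any comparison.

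Of the *Adgra2* complex 0 of 4 genes tested were called in any comparison, by edgeR or by DESeq2, and 0 had an unadjusted p under 0.05. Over all genes, edgeR called 0 to 2.55% in the comparisons and DESeq2 0.783 to 13.4%. An unadjusted p under 0.05 was found for 3.65 to 13.9% of all genes (edgeR). Its Wnt receptor genes were read in BEC wells, *Fzd4* at 106 and 47.5 CPM, *Lrp5* at 16 and 107 CPM and *Lrp6* at 38.1 and 37.0 CPM, and *Reck* was at 11.5 and 5.0 CPM. The list of *Adgrf5* partners had 1 gene tested, which edgeR called in 0 comparisons. DESeq2 called it in the lymphatic and the capillary-like comparison, where it called 13.4% and 0.783% of its genes.

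Over the 10 sums of replicate and class, the log2 levels of *Adgrl4* and *Adgrg1* had a Pearson r of 0.923, those of *Adgrl4* and *Adgrf5* of 0.901 and those of *Adgrf5* and *Adgrg1* of 0.799. *Adgra2* was negatively related to each other member, from −0.83 with *Adgrl2* to −0.19 with *Adgre5*. The sums of a replicate share plates and depth, so these values describe 10 points that are not independent. The protein-coding genes most like each member over the same sums were *Itga2b* (0.984), *Eepd1* (0.983) and *Tspan7* (0.978) for *Adgrl4*, and *Mmp15* (0.973), *Kif26a* (0.973) and *Il17rd* (0.965) for *Adgrf5*. They were *Gstt3* (0.955), *Snrnp25* (0.955) and *Id1* (0.95) for *Adgrg1*, and *Glrx2* (0.977), *Dennd5a* (0.965) and *Mat2b* (0.964) for *Adgrl2*. For *Adgre5* they included *Cfd* (0.913) and *Tcf15* (0.913), and for *Adgra2* *Igfbp2* (0.940), *Celsr2* (0.935) and *Tnik* (0.934).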

How the data were processed

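Ear dermal ECs were analysed in 4 plates, which form 2 replicates. The authors aligned the reads to mm10 (TopHat2 2.1.1), removed duplicated reads (SAMtools 0.1.18) and counted reads per gene (Subread 1.4.6-p5), and the deposited values are raw read counts for each gene and well. Because reads at the same position were counted once and carry no molecular identifiers, counts of abundant short genes are limited. The gene annotation of the counting is not given in the sources used here. The 92 spike-in rows stayed out of totals and tests. Symbols, exon lengths and positions came from GENCODE vM21.

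Of 1536 wells, 1521 were kept with at least 600 counts and 500 to 8000 genes. BEC wells were clustered (scran 1.30.0 size factors, leidenalg 0.10.2) without the adhesion receptor family among the variable genes and named from markers. Unnamed BEC wells (33 and 99), mural wells with few endothelial reads (0 and 39), *Ptprc* wells (1 and 1) and wells of no class (6 and 155) entered no comparison. No doublet caller was run, and only the limit on genes per well bears on doublets. CPM are counts scaled to a common total of reads on genes per well, averaged over wells within a replicate.

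The counts of each class and replicate were added up, which gave 10 sums. The test of edgeR 4.0.16 was run on genes that reached 10 counts in 2 or more sums (TMM, quasi-likelihood, 4 residual degrees of freedom with the replicate as a block, R 4.3.3). The block was kept because all classes of a replicate were sorted from the same mice onto the same plates. Between classes of the same replicate, deviations from the class means correlated at −0.0043 to 0.153. The labels do not say whether each replicate was a pool of its own, so the p-values measure the spread between these 2 replicates, which may be technical.

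The alternatives were DESeq2 1.42.0 (its size factors in edgeR, and its Wald test), no block, no low-count filter, limma 3.58.1 on mean CPM (log2, pseudocount of 1), single plates, each replicate left out, other limits for non-BEC genes, other clusterings, thinned wells and other definitions of the lymphatic and mural-mixed wells. The named genes are the 6 members, family genes of at least 10 CPM in both replicates in a class, at most 4 genes of each partner list by BEC level with those past the threshold, and the 3 genes most like each member. *Celsr2* was named after its values had been seen. A gene like *Adgre5* and 1 partner list are not reported here. The members and the lists were chosen with earlier results of these data known. The code was tested on simulated data.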

Additional observations from a re-analysis of the deposited data

Results flagged for a closer look

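Mean levels of the 6 members and of the other family genes named were compared across the 4 plates within each class, and 5 of 60 groups of 4 plates had a plate whose gap to the nearest other plate, as a share of the whole range, was above Dixon's critical value for 4 values. Chance flags about 1 in 20 groups. *Adgra2* of lymphatic wells was 85.2 CPM on plate A of replicate 1 (9 wells), against 3.70, 8.49 and 16.7 CPM on the other plates. *Adgrg1* of lymphatic wells was 311 CPM on plate B of replicate 1, which held 4 such wells, against 25.7, 53.3 and 66.0 CPM. *Adgrg3* of artery-like wells was 21.0 CPM on plate B of replicate 2, against 0.304, 0.618 and 3.42 CPM. In capillary-like wells, *Celsr1* was 35.6 CPM on plate A of replicate 2, against 0.434, 0.435 and 4.65 CPM, and *Adgrl1* was 70.0 CPM on plate B of replicate 2, against 0.630, 0.960 and 10.0 CPM.

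In wells that entered no comparison, *Adgra2* of replicate 2 was above the highest value of the 5 classes in that replicate, 11.8 CPM in lymphatic wells. It was 59.6 CPM in unnamed BEC wells and 38.9 CPM in mural wells with few endothelial reads. The unnamed wells of replicate 1 had 6.13 CPM.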

How the results depend on the processing

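The 6 members were called in none of the fits between artery-like and vein-like wells, between capillary-like and the other BEC wells, or between mural-mixed and BEC wells. Between lymphatic and BEC wells 2 were called, 1 without the replicate block (*Adgrl4*, with *Adgrg1* at −2.30), 4 with limma on mean CPM (*Adgrf5*, *Adgrg1*, *Adgrl2* and *Adgrl4*) and 0 on plate A alone. *Adgrl4* passed in 15 of 16 fits (−4.00 to −2.42, adjusted p of 4.49e-06 to 0.190), *Adgrg1* in 13 of 16 (−3.06 to −1.84, 0.000182 to 0.368), *Adgrg3* in 14 of 16, *Thy1* in 16 of 16 (10 of 14 between mural-mixed and BEC wells, adjusted p up to 0.149), *Flrt2* in 13 of 16, *Itgav* in 10 of 16 and *Celsr2* in 6 of 12. Over all genes the calls between lymphatic and BEC wells numbered 175 to 1990 over the fits, and those between mural-mixed and BEC wells 59 to 833. They numbered 0 to 149 between artery-like and vein-like wells and 0 to 111 for capillary-like wells. Without replicate 1 or 2, the log2 fold change of *Adgrl4* in lymphatic wells was −2.60 to −3.15 and that of *Adgrg1* −2.03 to −2.78, both values with no test. Members read in more BEC than mural-mixed wells in both replicates numbered 0 at full depth, 4 after thinning, 4 with at least 3 reads and 0 to 5 without a replicate, and members with a higher mean numbered 4, 3 with TMM-scaled sums and 4 to 6 without a replicate. Members above lymphatic wells by mean numbered 5, 4 on plate A alone and 5 without a replicate.

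All the values of members that changed direction were past no threshold, and the cause was not tested. In replicate 2 alone these were *Adgrf5* −0.23 and *Adgrg1* −0.32 between artery-like and vein-like wells, *Adgrl2* −0.96 and *Adgrg1* −0.029 for capillary-like wells, and *Adgrl2* 0.37 and *Adgre5* −0.54 between mural-mixed and BEC wells. The clustering called resolution 0.6 here kept the limit of 100 CPM and named clusters by at least 8 markers. With a limit of 10 CPM for BEC wells the resolution also changed, from 0.4 to 0.6. Replicate 1 then kept 4 artery-like, 4 capillary-like and 7 vein-like wells. Under the other settings more values changed direction. Between artery-like and vein-like wells they were *Adgrl4* 0.29 and *Adgra2* −1.22 with a limit of 10 CPM for BEC wells, *Adgrl2* −1.06 at resolution 0.6, *Adgre5* −0.12 with a limit of 300 CPM, and *Adgrg1* −0.056 with no filter, −0.049 with limma, −0.11 on plate B, −0.30 with a limit of 300 CPM, −0.036 after thinning and −0.0036 with wells under 20000 reads left out. For capillary-like wells they were *Adgrl4* −0.10 and *Adgrg1* −0.64 with a limit of 10 CPM, *Adgrg1* −0.029 with limma and −0.071 at resolution 0.6, and *Adgra2* 0.76 on plate B, 0.99 after thinning and 1.51 at resolution 0.6. *Adgrl2* of capillary-like wells became −0.0056 with DESeq2's size factors, −0.016 with no filter, −0.11 without the replicate block, −0.20 with only the 3 BEC classes fitted, −0.0039 in DESeq2, −0.24 with limma, −0.40 on plate A, −1.38 with a limit of 10 CPM and −0.34 at the next higher resolution. *Adgre5* of lymphatic wells became 0.39 with a limit of 10 CPM. Between mural-mixed and BEC wells, *Adgrl2* became 0.56 with a limit of 10 CPM, 0.057 at the next higher resolution and 0.10 with a mural limit of 1000 CPM, *Adgre5* −0.10 with limma and *Adgra2* −0.85 on plate B. The clustering called resolution 0.6 and the removal of wells under 20000 reads were chosen after seeing the data. With 2 replicates and, in the main setting, 13 lymphatic wells in replicate 1, depth and number of wells limit the less abundant members.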

Other observations

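The 33 and 99 BEC wells that took no class name had *Adgrl4* at 630 and 89.0 CPM, *Adgrf5* at 1525 and 335 CPM, *Adgrg1* at 551 and 182 CPM, *Adgre5* at 132 and 50.4 CPM and *Adgrl2* at 74.5 and 15.1 CPM. The 8 lymphatic markers not used to divide the wells summed to 513 and 3578 CPM in them, and the 10 mural markers to 2339 and 999.7 CPM. In replicate 1 the unnamed wells were thus within the range of the named BEC classes for *Adgrf5*, *Adgrg1*, *Adgre5* and *Adgrl2* and below it for *Adgrl4*, and in replicate 2 they were below each named class for all members except *Adgra2* by CPM. With scran size factors the same held for *Adgrl4*, *Adgrf5* and *Adgrl2*, whereas *Adgrg1* was 775, above each named class, and *Adgre5* was 99.0, above the vein-like wells.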
